A study of Mus musculus with 6 samples.

Results

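The 9 inflammatory chemokine ligand genes *Ccl2*, *Ccl3*, *Ccl4*, *Ccl5*, *Ccl6*, *Ccl9*, *Cxcl9*, *Cxcl10* and *Cxcl16* were followed in conventional type 1 dendritic cells (cDC1), from control mice and from mice bred to delete c-Jun and JunB, subunits of the transcription factor AP-1, in cells that express CD11c. They were chosen by name from the chemokine family and found by gene identifier among the 54532 genes counted in each library. All 9 were listed in every library, and 6 of them had enough reads to be tested together with 12894 genes in all. The libraries were poly(A) RNA-seq of cDC1 grown for 8 days from mouse bone marrow with 80 ng/mL of the growth factor FLT3L and then purified by flow sorting. The control genotype, c-Jun/JunB fl/fl, had 3 libraries, and the deficient genotype, c-Jun/JunB Δ/Δ with Itgax-Cre, had 3 as well. In the control mice both genes carried floxed alleles, and the labels name no Cre for them. In the deficient mice a Cre under the *Itgax* (CD11c) promoter acted on those alleles, which ties the deletion to cells that have switched on CD11c. The study describes its mice as adults of both sexes on a mixed 129 Sv × C57BL/6 background. That description is of the study as a whole and is not broken down for these cultures, for which no stimulus is named. The sort took CD24+ CD11c+ cells without B220, CD115 and CD172a.

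Chemokines are small secreted proteins that bind receptors on the cell surface and guide the movement of leukocytes along a gradient. Ligands with a CC motif carry a pair of adjacent cysteines near the start of the mature protein, and ligands with a CXC motif carry 1 residue between them. *Ccl2* encodes the main ligand of Ccr2 and draws monocytes. *Ccl3*, *Ccl4* and *Ccl5* encode chemokines that draw T cells, natural killer cells and monocytes, and the first and last of them bind Ccr1. *Ccl6* and *Ccl9* encode rodent CC chemokines that act through Ccr1. *Cxcl9* and *Cxcl10* are interferon-induced ligands of Cxcr3 on T cells and natural killer cells, and cDC1 are known as a source of both in infected or tumour tissue. *Cxcl16* encodes a ligand of Cxcr6 that is made as a membrane protein and released by cutting. AP-1, NF-kB and interferon regulatory factors are well-known activators of genes in this family.

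The cysteine motif that divides the family is given here from the coding strand of 1 GENCODE M21 transcript per gene for 8 members, with the cysteine codons in capitals, because the results are ordered by these classes. In the 5 Ccl genes given 0 codons lie between the capitals, and in the 3 Cxcl genes 1 codon does.
Ccl2: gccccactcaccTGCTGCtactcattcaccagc
Ccl4: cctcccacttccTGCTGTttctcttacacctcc
Ccl5: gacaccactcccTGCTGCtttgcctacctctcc
Ccl6: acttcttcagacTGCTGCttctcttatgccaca
Ccl9: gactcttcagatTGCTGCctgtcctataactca
Cxcl9: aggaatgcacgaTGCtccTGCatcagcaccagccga
Cxcl10: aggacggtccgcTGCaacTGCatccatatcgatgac
Cxcl16: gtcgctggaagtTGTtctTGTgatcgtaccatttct
In their coding bases the members are otherwise unlike enough for reads to be told apart. Untranslated bases, and the sequences of other genes, were not compared. Over the 36 pairs of members the longest stretch of identical coding bases was 23, between *Ccl6* and *Ccl9*, which is shorter than a read. The coding sequences of that pair were identical at 70.6% of 344 aligned bases, and those of *Cxcl9* and *Cxcl10* at 59.2% of 289. Most of the members lie together on chromosome 11 (GRCm38, GENCODE M21). *Ccl5* (ENSMUSG00000035042.2) spans chr11:83525778-83530518, *Ccl9* (ENSMUSG00000019122.8) chr11:83572919-83578636, *Ccl6* (ENSMUSG00000018927.3) chr11:83587882-83593087 and *Ccl3* (ENSMUSG00000000982.5) chr11:83647844-83649355, all on the minus strand. *Ccl4* (ENSMUSG00000018930.3) follows on the plus strand at chr11:83662584-83664683, and *Ccl2* (ENSMUSG00000035385.5) is on the plus strand at chr11:82035571-82037453. *Cxcl16* (ENSMUSG00000018920.11) is also on chromosome 11, at chr11:70453983-70459984 on the minus strand. *Cxcl9* (ENSMUSG00000029417.9, chr5:92321347-92328079) and *Cxcl10* (ENSMUSG00000034855.13, chr5:92346638-92348889) are neighbours on the minus strand of chromosome 5.

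The libraries held between 21693217 and 26788296 reads on genes. The labels do not say what a replicate is, but a legend of the study counts these RNA-seq samples as individual mice, and p-values measure the spread between them. Control libraries were closer to each other than deficient ones: the chi-square of their counts per degree of freedom was 6.76 to 11.2 among fl/fl pairs and 30.3 to 42.0 among Δ/Δ pairs. *Junb* had 8156, 7387 and 9735 reads in fl/fl and 2721, 3667 and 4803 in Δ/Δ, with no overlap (log2 fold change -1.02, SE 0.25, edgeR adjusted p = 0.0729). It passed in 4 of 12 alternatives, among them DESeq2 (adjusted p = 0.0209), and the adjusted p ran from 0.0161 to 0.228 over them. *Jun* had 1839, 1415 and 1488 reads in fl/fl and 1187, 949 and 1373 in Δ/Δ, which overlap (log2 fold change -0.29, SE 0.15, edgeR adjusted p = 0.345). Reads of both genes were present in every library labelled Δ/Δ. The labels and methods do not state how much of either gene is lost on recombination. Counts over the whole gene are thus a loose check of the deletion. The study itself reports deletion of both genes by quantitative RT-PCR in cDC1 and cDC2 sorted from spleen and in cDC1 from lymph nodes. A further legend lists that assay for cDC1 from FLT3L cultures. Of 14 cDC1 markers, all tested, 4 fell (*Xcr1*, *Tlr3*, *Rab7b* and *Snx22*) and 10 did not pass, among them *Clec9a*, *Irf8* and *Batf3*, where 1.85% of all tested genes fell. The summed level of the 14 was 13014 to 13249 counts per 1000000 reads (CPM) in fl/fl and 10521 to 12529 in Δ/Δ, so cDC1 genes were abundant in every library. Of 12 cDC2 markers 4 rose (*Cd209a*, *Klf4*, *Cd4* and *Ccr2*), where 2.03% of all tested genes rose, though *Sirpa*, the gene of the CD172a that the sort excluded, had a log2 fold change of -0.21 (SE 0.13, edgeR adjusted p = 0.43). Library Δ/Δ 2 stood apart from the other 2 deficient libraries in genes of mature dendritic cells and in most basophil markers, with values given beside *Ccl5* and *Cxcl9* below.

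None of the ligand genes that could be tested changed between c-Jun/JunB-deficient and control cDC1s past an adjusted p of 0.05. In edgeR's quasi-likelihood test 0 of the 6 tested members passed, against 3.88% of all tested genes (2.03% higher and 1.85% lower in Δ/Δ). At an unadjusted p under 0.05 it was 1 member, *Ccl5*, against 19.4% of all tested genes. DESeq2 passed 0 of the 8 members to which it gave an adjusted p, where 7.02% of its tested genes passed, and limma-voom passed 0 of 6, where 4.08% passed. At an unadjusted p each of those tools again had 1 member, and their shares of all genes at that threshold were not computed. The groups did not overlap for 1 of the 6 tested members, *Ccl5*, while 26.0% of all tested genes had no overlap. The median log2 fold change of the 6 tested members was 0.16, and that of all tested genes was 0.0018. A p above the threshold does not show that a gene was alike in both genotypes, and the 95% intervals below give the range of change that each gene's data allow.

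**Figure D1:**
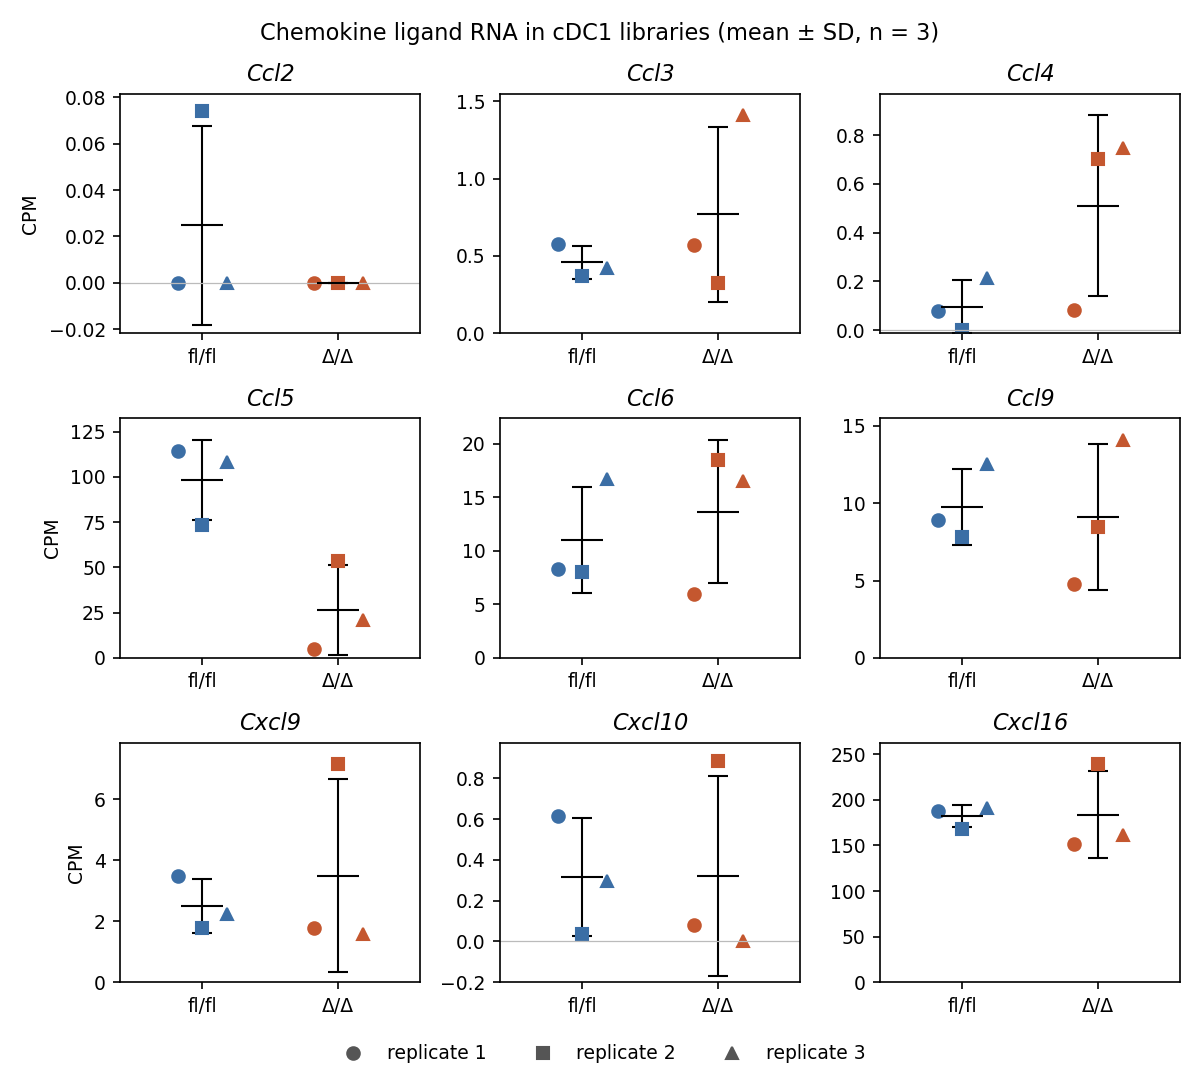
CPM of each of the 9 ligand genes (y axes, linear, 1 scale per gene) in the fl/fl (blue) and Δ/Δ (orange) libraries, with the replicate number as the symbol and black bars for the mean ± SD (n = 3). *Ccl5* is the only tested gene whose groups do not overlap, with 73.3 to 114 CPM in fl/fl and 4.99 to 53.6 in Δ/Δ; the bars reach below 0 where the SD exceeds the mean.

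*Ccl5* was the only tested member whose genotypes were fully separated. It had 2957, 1976 and 2546 reads in fl/fl, and 123, 1149 and 473 in Δ/Δ. Scaled to depth these were 114, 73.3 and 108 CPM in fl/fl against 4.99, 53.6 and 20.8 CPM in Δ/Δ libraries. Every deficient library lay below every control library, but the deficient ones were spread widely: the highest had 10.7 times the level of the lowest, against 1.56 times in fl/fl. The means were 98.4 ± 22.0 CPM (SD, n = 3) and 26.5 ± 24.8 CPM, and the fitted level was 3.73-fold higher in fl/fl. The log2 fold change was -1.90 (SE 0.69, 95% interval -3.53 to -0.27), with an adjusted p of 0.194 in edgeR's quasi-likelihood test. In these bulk libraries fewer cells that make a transcript and less transcript per cell cannot be told apart.

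The width of that spread was unusual for these libraries. The range of log2 CPM of *Ccl5* was 0.64 in fl/fl and 3.40 in Δ/Δ, and 120 of the 12894 tested genes (0.931%) had a range at least as wide in Δ/Δ. In fl/fl, by comparison, 14.98% of tested genes had a range at least as wide as that of *Ccl5*. The call for *Ccl5* turned on 1 library. Without Δ/Δ 2 the log2 fold change was -2.94 (SE 0.55) with an adjusted p of 0.0355 in edgeR's test, in a fit where 5.43% of all genes passed. Without Δ/Δ 1, the lowest library, it was -1.40 (SE 0.38) with an adjusted p of 0.0642. Over all 12 alternative fits it kept its sign, between -2.94 and -1.40, with adjusted p from 0.0355 to 0.453.

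**Figure D2:**
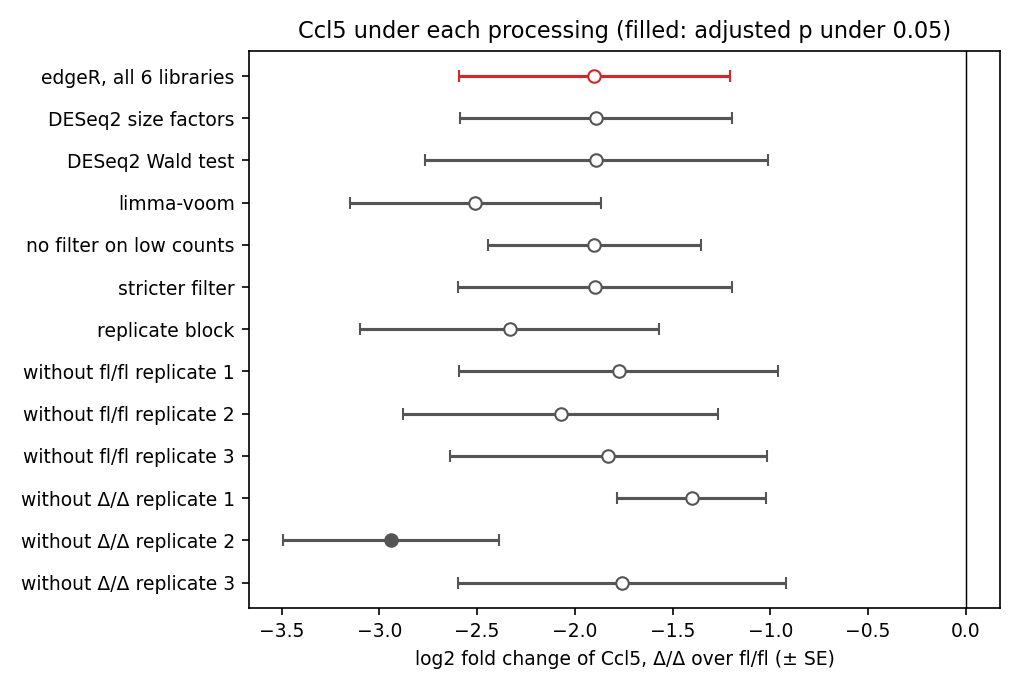
Log2 fold change of *Ccl5*, Δ/Δ over fl/fl (x axis, bars ± SE), in the edgeR fit of all 6 libraries (red) and in each of the 12 alternatives (y axis). All values lie below 0, from -2.94 to -1.40, and only the fit without Δ/Δ replicate 2 is filled, with an adjusted p of 0.0355.

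Several genes of mature dendritic cells varied along with *Ccl5* among the deficient libraries. The 4 named here, *Fscn1*, *Ccr7*, *Il12b* and *Socs2*, were picked from the 11 mature DC markers after their values were seen. *Fscn1*, the actin-bundling fascin of mature dendritic cells, had 7587, 4928 and 5562 reads in fl/fl and 784, 14030 and 2105 in Δ/Δ. *Ccr7*, the receptor that leads mature dendritic cells to lymph nodes, had 5742, 4085 and 3770 reads in fl/fl and 662, 8067 and 1380 in Δ/Δ. In both genes Δ/Δ 1 was lowest, Δ/Δ 3 next and Δ/Δ 2 highest of all 6 libraries. *Il12b*, which encodes a subunit of interleukin-12, had the same order in Δ/Δ, with 105, 2621 and 300 reads against 956 to 1341 in fl/fl. *Socs2*, a suppressor of cytokine signalling, had 854, 592 and 646 reads in fl/fl and 95, 857 and 185 in Δ/Δ. *Ccl5* followed the same order within Δ/Δ, yet in Δ/Δ 2, where *Fscn1*, *Ccr7* and *Il12b* exceeded every control library, it stayed below every control library.

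Over the whole list, 0 of the 11 mature DC markers passed in edgeR's test, against 3.88% of all tested genes. At an unadjusted p under 0.05 there were 2, against 19.4% of all tested genes. Their summed level was 1973, 1528 and 1753 CPM in fl/fl, and 1063, 3239 and 1314 CPM in Δ/Δ. All 11 were highest in Δ/Δ 2, and 7 were lowest in Δ/Δ 1. In the other 4 the lowest library was a control. Of these, *Cd80*, a co-stimulatory ligand, ranged from 13.0 to 16.3 CPM over the controls and stood at 19.6, 29.9 and 23.6 CPM in the deficient libraries, with no overlap (log2 fold change 0.79, SE 0.18, edgeR adjusted p = 0.0606). *Marcksl1* did not overlap either (edgeR adjusted p = 0.0672), while *Cd40* and *Cd86* did. The median log2 fold change of the 11 was 0.088 with all libraries and -0.58 without Δ/Δ 2. Their part in the *Ccl5* result was not tested. Genes of T and natural killer cells, which also make *Ccl5*, were near 0: the 11 markers summed to 1.11 to 1.15 CPM in fl/fl and 1.01 to 1.63 CPM in Δ/Δ, with 1 to 8 reads of *Cd3e* and 0 to 3 of *Ncr1* per library.

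**Figure D3:**
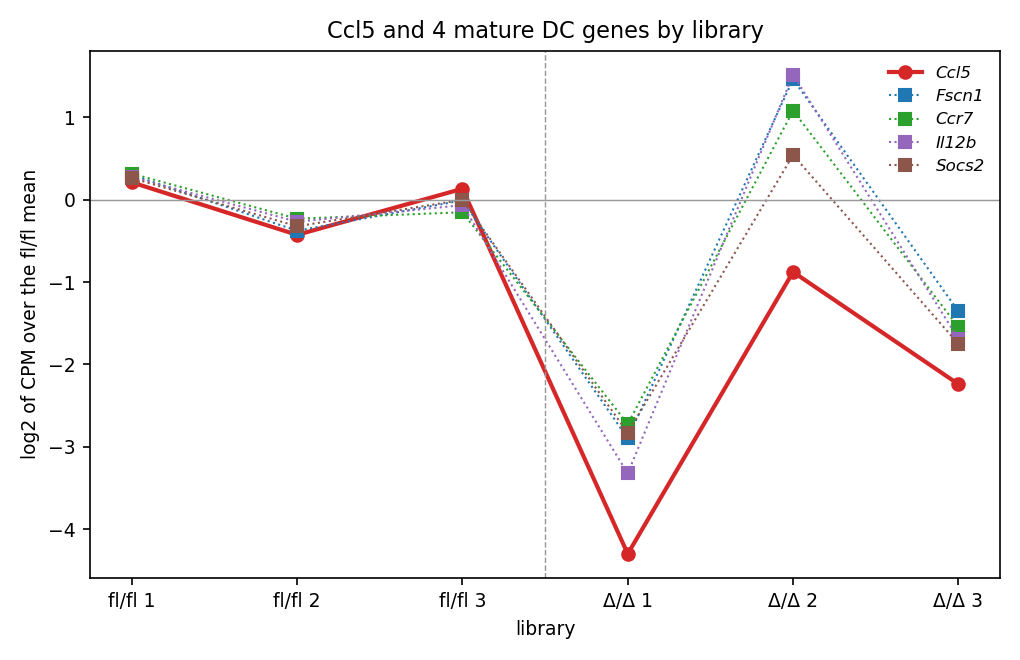
Log2 of the CPM in each library over the mean of the 3 fl/fl libraries (y axis) for *Ccl5* (red) and 4 mature DC genes (dotted), by library (x axis). All 5 genes are lowest in Δ/Δ 1 and highest within Δ/Δ in Δ/Δ 2, where only *Ccl5* is below the fl/fl mean, at 53.6 CPM against 98.4.

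*Ccl3* and *Ccl4*, a pair of neighbouring genes, were scarce in all libraries. *Ccl3* had 15, 10 and 10 reads in fl/fl, and 14, 7 and 32 in Δ/Δ. The groups overlapped, and 1 library, Δ/Δ 3, held most of the Δ/Δ reads. The means were 0.458 ± 0.108 CPM and 0.768 ± 0.569 CPM (SD, n = 3). Its log2 fold change was 0.74 (SE 0.58, 95% interval -0.62 to 2.10, edgeR adjusted p = 0.524), and without Δ/Δ 3 it was -0.023.

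*Ccl4* had 2, 0 and 5 reads in fl/fl and 2, 15 and 17 in Δ/Δ. It was too scarce for the fit across genes. Summed over the libraries these were 7 reads (0.0915 CPM, exact 95% Poisson interval 0.0368 to 0.189) against 34 reads (0.494 CPM, 0.342 to 0.691), intervals that cover counting error only. Libraries Δ/Δ 2 and Δ/Δ 3 were above every control library, and Δ/Δ 1 was within their range. A two-sided exact permutation test of the CPM gave p = 0.2, where 3 against 3 libraries cannot give less than 0.1. *Cd14*, which encodes a co-receptor for bacterial lipopolysaccharide on monocytes and macrophages and was picked after its values were seen, was also high in 1 library, with 276 reads in Δ/Δ 3 and 16 to 36 in the others. Of the 12 markers of those cells 3 were highest in that library, while others were low there: *C1qb* had 16, 10 and 16 reads in fl/fl and 0 in Δ/Δ 3, *C1qc* 14, 7 and 28 against 2, and *Mertk* 5, 0 and 13 against 1. *Csf1r*, which defines monocytes and macrophages, had 93 to 154 reads in fl/fl and 139 to 146 in Δ/Δ. It is the gene of the CD115 that the sort excluded. Of 12 monocyte and macrophage markers 8 were tested and 1, *Adgre1*, rose (log2 fold change 0.91, SE 0.17, edgeR adjusted p = 0.0317), where 2.03% of all tested genes rose. The part of these markers in the *Ccl3* and *Ccl4* values was not tested.

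*Ccl6* and *Ccl9*, ligands of Ccr1, were found at moderate levels in both genotypes. *Ccl6* had 215, 216 and 394 reads in fl/fl and 148, 396 and 374 in Δ/Δ, and the groups overlapped. Its means were 11.0 ± 4.95 CPM and 13.7 ± 6.70 CPM (SD, n = 3), with a log2 fold change of 0.31 (SE 0.46, 95% interval -0.76 to 1.38, edgeR adjusted p = 0.756). *Ccl9* had 231, 210 and 295 reads in fl/fl and 118, 181 and 320 in Δ/Δ, and also overlapped. Its means were 9.74 ± 2.47 CPM and 9.11 ± 4.69 CPM, with a log2 fold change of -0.10 (SE 0.38, 95% interval -0.99 to 0.80, edgeR adjusted p = 0.919).

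In both genes fl/fl 3 was the highest control library and Δ/Δ 1 the lowest of all, as was also the case in *Cxcl16*. Among the 15 pairs of tested members the profiles of *Ccl6* and *Ccl9* were the most alike. The measure is the root mean square (RMS) difference between log2 CPM values, each centred on the gene's mean over the 6 libraries, and it was 0.39 for this pair. The least alike pair was *Ccl3* and *Ccl5*, at 1.91. For *Ccl6* the most similar genes of all those tested were *Gm3379* and *6030468B19Rik* (0.16 and 0.19), and for *Ccl9* they were *Gm25082* and *B430306N03Rik* (0.095 and 0.12). These 4 genes had between 0.325 and 3.04 CPM per library, so their profiles rest on few reads.

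*Ccl2*, the ligand of Ccr2, was barely detected. It had 0, 2 and 0 reads in fl/fl and 0 in each Δ/Δ library. The 0 reads over the Δ/Δ libraries allow a level of up to 0.0436 CPM (3 reads), so no comparison between the genotypes can be made at this depth. Its receptor was among the abundant transcripts of the same cells and is described below.

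*Cxcl9* and *Cxcl10*, the interferon-induced ligands of Cxcr3, were low and did not separate the genotypes. *Cxcl9* had 90, 48 and 53 reads in fl/fl, and 44, 153 and 36 in Δ/Δ. Library Δ/Δ 2 was the highest of all and Δ/Δ 3 the lowest, so the deficient libraries enclosed the control ones. The means were 2.50 ± 0.873 CPM and 3.50 ± 3.15 CPM (SD, n = 3). Its log2 fold change was 0.48 (SE 0.61, 95% interval -0.96 to 1.92, edgeR adjusted p = 0.712), and without Δ/Δ 2 it was -0.57, with the opposite sign.

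*Cxcl10* had 16, 1 and 7 reads in fl/fl and 2, 19 and 0 in Δ/Δ, and was too scarce for the fit. Summed, these were 24 reads (0.314 CPM, exact 95% Poisson interval 0.201 to 0.467) and 21 reads (0.305 CPM, 0.189 to 0.467). A two-sided exact permutation test of the CPM gave p = 1. As with *Cxcl9*, Δ/Δ 2 was the highest library and Δ/Δ 3 the lowest.

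The genes most like *Cxcl9* over the 6 libraries were *Cd40*, a co-stimulatory receptor of dendritic cells and 1 of the mature DC markers, and *Serpinb9*, an inhibitor of granzyme B. *Cd40* differed from it by an RMS of 0.16 and had 471, 273 and 294 reads in fl/fl and 262, 1004 and 266 in Δ/Δ. *Serpinb9* differed by 0.19 and had 58.1 to 85.7 CPM in fl/fl, and 50.4, 182 and 34.5 CPM in Δ/Δ. Each had its highest level in Δ/Δ 2. Of the 7 basophil and mast cell markers 5 were also highest there, while *Kit* was highest in Δ/Δ 3 and *Fcer1a* in fl/fl 2: *Mcpt8*, a basophil protease, had 0, 1 and 4 reads in fl/fl and 5, 103 and 13 in Δ/Δ. The 7 together, among which *Kit* alone had a mean of 323 CPM in fl/fl, summed to 289, 315 and 367 CPM in fl/fl and 351, 419 and 465 CPM in Δ/Δ, so the sum was highest in Δ/Δ 3. Of the 2 that were tested 0 passed in edgeR's test, and 1 had an unadjusted p under 0.05, as had 19.4% of all tested genes. Their part in the *Cxcl9* and *Cxcl10* values was not tested.

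*Cxcl16*, the ligand of Cxcr6, was the most steady member. It had 4861, 4544 and 4502 reads in fl/fl and 3733, 5113 and 3655 in Δ/Δ. Library Δ/Δ 2 was above the control libraries and the other deficient ones were below them. The means were 182 ± 12.1 CPM and 184 ± 47.8 CPM (SD, n = 3), and the log2 fold change was 0.011 (SE 0.17, 95% interval -0.39 to 0.41, edgeR adjusted p = 0.981). Without Δ/Δ 2 it was -0.22 (SE 0.08, adjusted p = 0.163). Of the exon bases of *Cxcl16* 18.3% are shared with *Zmynd15* on the opposite strand, and of those of *Cxcl10* 5.91% with *Art3*, which had 0 reads in every library. *Zmynd15*, named here for that overlap, had 444, 295 and 418 reads in fl/fl and 51, 460 and 144 in Δ/Δ. No source used here gives the strand setting of the counts. It is thus open whether reads over the bases shared by *Cxcl16* and *Zmynd15* were assigned by strand or left out as ambiguous.

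Levels of different genes can be compared only per length, as CPM per kilobase of merged exons (RPKM). In fl/fl the order was *Ccl5* at 103 ± 22.9 RPKM (SD, n = 3), *Cxcl16* at 60.3 ± 4.01, *Ccl6* at 6.13 ± 2.76, *Ccl9* at 3.20 ± 0.811, *Cxcl9* at 0.829 ± 0.290 and *Ccl3* at 0.598 ± 0.141. *Ccl4*, *Cxcl10* and *Ccl2* followed at 0.146, 0.141 and 0.0217 RPKM. In that order neighbours overlapped in their libraries only between *Cxcl9* and *Ccl3*, between *Ccl4* and *Cxcl10* and between *Cxcl10* and *Ccl2*. *Ccl5* was as high as or higher than 96.9% of the tested genes per length in fl/fl, and *Cxcl16* than 94.5%, so these were abundant transcripts of control cDC1s.

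In Δ/Δ *Cxcl16* came first at 60.8 ± 15.8 RPKM and *Ccl5* second at 27.6 ± 25.8. The rest of the order was as in fl/fl: *Ccl6* at 7.61, *Ccl9* at 2.99, *Cxcl9* at 1.16, *Ccl3* at 1.00, *Ccl4* at 0.773, *Cxcl10* at 0.143 and *Ccl2* at 0 RPKM. There every pair of neighbours overlapped in their libraries. *Ccl5* thus stood above *Cxcl16* in mean level in fl/fl and below it in Δ/Δ, and this exchange of places was not tested.

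**Figure D4:**
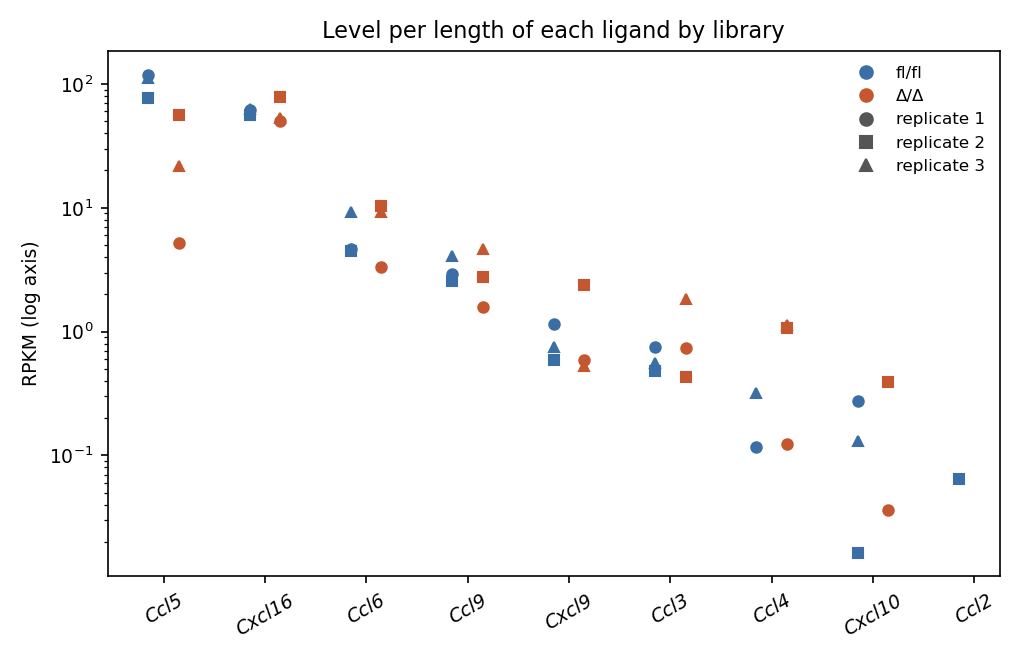
RPKM of each ligand gene (y axis, log scale) by gene (x axis, in the order of the fl/fl means), with fl/fl in blue on the left, Δ/Δ in orange on the right and the replicate as the symbol; libraries with 0 reads are not drawn. *Ccl5* and *Cxcl16* lie far above the rest in fl/fl, at means of 103 and 60.3 RPKM, and the Δ/Δ libraries of *Ccl5* run from 5.20 to 55.8.

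The makeup of the chemokine reads was also taken, as shares of CPM that are not corrected for length. Merged exons hold 3021 bases in *Cxcl16* and 960 in *Ccl5*, so these shares do not rank the 2 genes. Per length *Ccl5* stood above *Cxcl16* in fl/fl, as given above. The 9 members together had 323, 260 and 331 CPM in the control libraries and 170, 328 and 216 in Δ/Δ, which overlap. *Ccl5* supplied 35.3%, 28.2% and 32.6% of the sum in fl/fl and 2.94%, 16.3% and 9.64% in Δ/Δ. *Cxcl16* supplied 57.6% to 64.8% in fl/fl and 72.7% to 89.2% in Δ/Δ. The other members made up 6.78% to 9.78% in fl/fl and 7.84% to 15.9% in Δ/Δ. Without *Ccl5* the sums were 187 to 223 CPM in fl/fl and 165 to 275 CPM in Δ/Δ.

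The deficient libraries held most of the extremes. Δ/Δ 1 was the lowest library for *Ccl5*, *Ccl6*, *Ccl9* and *Cxcl16*. Δ/Δ 2 was the highest for *Ccl6*, *Cxcl9*, *Cxcl10* and *Cxcl16*, and Δ/Δ 3 for *Ccl3*, *Ccl4* and *Ccl9*. All 6 tested members had a wider range of log2 CPM in Δ/Δ than in fl/fl, from 0.66 to 3.40 against 0.18 to 1.05. The share of all tested genes with a wider range in Δ/Δ was not computed. Over all tested genes, too, deficient libraries differed more from each other than control ones did, so this is not shown to be particular to the members. For *Ccl5* the most similar profiles were those of *Dkk2*, a secreted modulator of Wnt signalling, and *Dscaml1*, a cell adhesion molecule (RMS 0.24 and 0.26). *Dscaml1* had 12.4, 7.16 and 12.0 CPM in the control libraries and 0.649, 9.01 and 2.64 in Δ/Δ. *Dkk2* was near 1 CPM in fl/fl and had 0 reads in Δ/Δ 1, so its likeness rests on few reads. For *Ccl3* the nearest were *Gm47508* and *Rpl35a-ps2* (RMS 0.21 and 0.22), both at 0.260 to 1.06 CPM.

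Among the receptors of these ligands, 8 were followed, 4 were tested and *Ccr2* rose, against 2.03% of all tested genes. *Ccr2*, the receptor of Ccl2, had 659, 813 and 909 CPM in the control libraries and 1392, 1503 and 1724 in Δ/Δ. All deficient libraries lay above all control ones, with a log2 fold change of 0.96 (SE 0.13, 95% interval 0.65 to 1.26, edgeR adjusted p = 0.013). *Ccr1* had 31.8 to 35.7 CPM in fl/fl and 16.6 to 42.2 in Δ/Δ, with a log2 fold change of -0.15 (SE 0.30). *Cxcr3*, the receptor of Cxcl9 and Cxcl10, had 89.8 to 102 CPM in fl/fl and 78.9 to 124 in Δ/Δ, with a log2 fold change of 0.079 (SE 0.16). The atypical receptor *Ccrl2* had a log2 fold change of -0.46 (SE 0.48). *Cxcr6*, the receptor of Cxcl16, had 0 to 11 reads per library, *Ackr1* 0 to 10, *Ackr2* 1 to 9 and *Ccr3* none. The median log2 fold change of the 4 tested receptors was -0.035. Without fl/fl 2 the adjusted p of *Ccr2* was 0.0813 in edgeR's test.

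**Figure D5:**
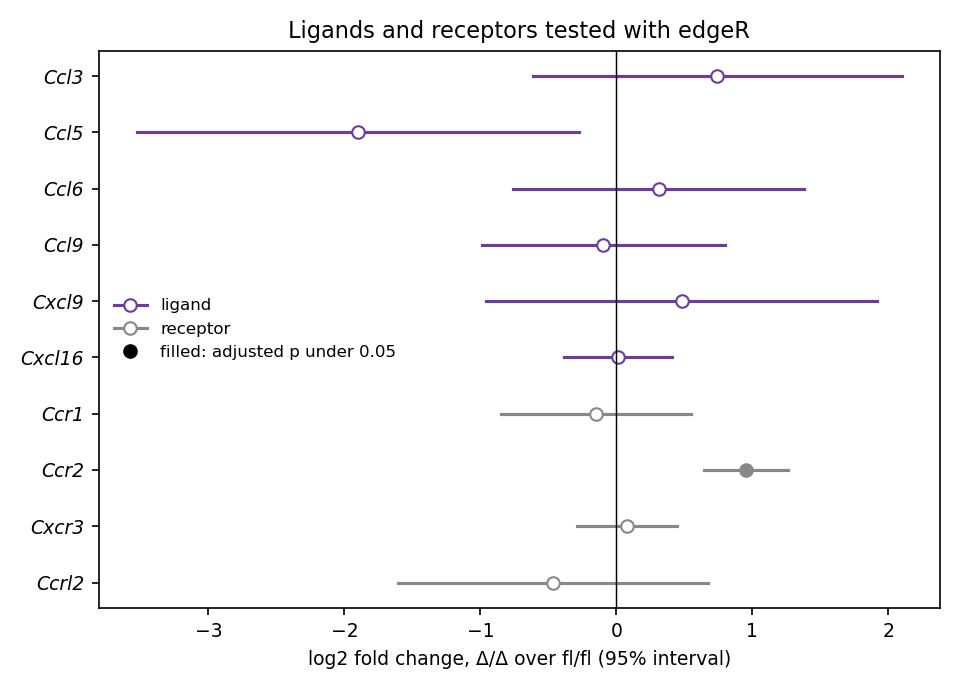
Log2 fold change, Δ/Δ over fl/fl (x axis, bars are 95% intervals), of the 6 tested ligand genes (purple) and 4 tested receptor genes (grey). *Ccr2* is the only filled point (adjusted p of 0.013), and of the ligands only *Ccl5* has an interval that leaves out 0, from -3.53 to -0.27 before adjustment.

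The TNF, IL-1, TLR, NF-kB and interferon pathways are known to induce chemokine genes. Of 38 genes of these pathways, not all of them activators, 36 were tested. Among these 1 rose and 2 fell, against 2.03% and 1.85% of all tested genes. *Tlr13*, an endosomal sensor of bacterial ribosomal RNA, rose by 0.81 on the log2 scale (SE 0.09, edgeR adjusted p = 0.00685), from 46.5 ± 1.40 to 81.6 ± 9.82 CPM. *Irf7*, a driver of type I interferon genes, fell by 1.54 on the log2 scale (SE 0.25, edgeR adjusted p = 0.0209), from 94.6 ± 17.8 to 32.4 ± 11.2 CPM. *Tlr3*, the sensor of double-stranded RNA that marks cDC1, fell by 0.77 on the log2 scale (SE 0.13, edgeR adjusted p = 0.0226). The other 33 tested genes did not pass, and the median of the 36 was 0.049. At an unadjusted p under 0.05 in edgeR's test there were 9 of the 36, against 19.4% of all tested genes. Groups did not overlap for 8 of them, against 26.0% of all tested genes. Leaving out fl/fl 1 or fl/fl 2 ended the calls of *Tlr13* and *Irf7*, and leaving out any 1 control library ended that of *Tlr3*, with adjusted p of up to 0.0622, 0.110 and 0.108 over the alternatives. *Irf7* also lost its call with a replicate block. The genes of the interferons themselves in this list, *Ifng* and *Ifnb1*, had no read in any library.

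In the remaining lists no gene passed in edgeR's test, and the counts at an unadjusted p can be read against the 19.4% of all tested genes. Of 26 other chemokine ligands 12 had no read in any library, 3 were tested and 0 passed in edgeR's test, with 0 at an unadjusted p under 0.05. Their summed level was 20.1 to 22.1 CPM in fl/fl and 13.4 to 26.6 CPM in Δ/Δ, far below the sum of the 9 members. Of 15 genes that cut, carry or degrade chemokines or their transcripts, 12 were tested and 0 passed in edgeR's test, with 5 at an unadjusted p. Of 11 AP-1 genes 10 were tested and 0 passed, with 3 at an unadjusted p. The 18 immediate early genes, which answer quickly to stimulation and to cell handling, had a median log2 fold change of 0.83, and 0 passed in edgeR's test with 9 at an unadjusted p. Their summed level was 1425, 1349 and 1767 CPM in fl/fl and 1583, 2795 and 3130 CPM in Δ/Δ, highest in the libraries in which *Ccl4* was highest, and their part in the *Ccl4* values was not tested.

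Markers of further cell types were measured in the same libraries. Of all the marker calls, those of *Cd209a* and *Ccr9* held in all 12 alternatives, while *Xcr1*, *Rab7b*, *Snx22*, *Klf4*, *Cd4* and *Adgre1* passed in 8 to 10 and each missed the threshold without fl/fl 1 or fl/fl 2. Of 9 pDC markers 7 were tested and *Ccr9*, a homing receptor, rose (log2 fold change 1.41, SE 0.12, edgeR adjusted p = 0.00333), where 2.03% of all tested genes rose. *Siglech*, which defines pDCs, had 202 to 290 reads in fl/fl and 353 to 852 in Δ/Δ (log2 fold change 1.44, SE 0.32, edgeR adjusted p = 0.0571). *Bst2*, of the same list, went the other way without overlap (log2 fold change -0.41, SE 0.09, edgeR adjusted p = 0.0572), and *Tcf4* and *Spib* overlapped. The 5 B cell markers summed to 15.5 to 25.8 CPM in fl/fl and 10.8 to 40.2 CPM in Δ/Δ. The 9 neutrophil markers summed to 4.59 to 17.5 CPM in fl/fl and 3.12 to 11.0 CPM in Δ/Δ, with 10 to 127 reads of *S100a8* per library. *Fcgr1*, which defines macrophages, had 12 to 27 reads per library. In edgeR's test 0 of the 4 tested B cell markers and 0 of the 4 tested neutrophil markers passed. The single T and natural killer cell marker tested did not pass either. At an unadjusted p under 0.05 these lists had 0, 1 and 0, against 19.4% of all tested genes.

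Because c-Jun and JunB bind DNA as parts of AP-1, the 250 bases before the start of each member were searched for the AP-1 motif TGANTCA. RefSeq's promoter table for GRCm38.p6 held 5 of the 9 members, *Ccl3*, *Ccl6*, *Ccl9*, *Cxcl9* and *Cxcl10*. The cAMP response element TGACGTCA, an NF-kB core GGGNNTTTC and an interferon response core GAAANNGAA were searched too, on both strands. Only these exact letters were matched. A window without a match to the NF-kB core, such as that of *Cxcl10*, may still hold an NF-kB site of other letters in lower case. Windows of 2 pairs are shown, the neighbours *Cxcl9* and *Cxcl10* and the most similar pair *Ccl6* and *Ccl9*. Each runs 5′ to 3′ on the minus strand of the genome, which is the strand of the gene, and capitals mark every match. The 4 windows cover chr5:92328080-92328329, chr5:92348890-92349139, chr11:83593088-83593337 and chr11:83578637-83578886, in that order.
Cxcl9: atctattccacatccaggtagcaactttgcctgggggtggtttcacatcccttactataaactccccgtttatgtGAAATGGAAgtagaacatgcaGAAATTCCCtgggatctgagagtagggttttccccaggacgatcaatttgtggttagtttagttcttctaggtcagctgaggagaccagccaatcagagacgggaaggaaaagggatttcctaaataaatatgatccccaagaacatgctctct
Cxcl10: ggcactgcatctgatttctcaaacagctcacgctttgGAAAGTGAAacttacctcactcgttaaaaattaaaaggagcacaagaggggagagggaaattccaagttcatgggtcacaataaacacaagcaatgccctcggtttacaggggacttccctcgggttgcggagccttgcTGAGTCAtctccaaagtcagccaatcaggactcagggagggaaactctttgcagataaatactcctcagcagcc
Ccl6: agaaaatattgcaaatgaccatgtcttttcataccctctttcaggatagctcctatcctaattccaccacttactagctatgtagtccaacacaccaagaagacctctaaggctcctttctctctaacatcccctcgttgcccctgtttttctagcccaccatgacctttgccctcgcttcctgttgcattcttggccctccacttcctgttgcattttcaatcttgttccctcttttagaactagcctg
Ccl9: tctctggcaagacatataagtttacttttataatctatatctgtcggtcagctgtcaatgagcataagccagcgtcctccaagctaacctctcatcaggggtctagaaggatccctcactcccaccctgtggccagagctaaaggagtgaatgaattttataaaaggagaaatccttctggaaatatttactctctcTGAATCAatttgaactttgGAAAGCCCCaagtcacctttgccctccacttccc
The *Cxcl10* window held an AP-1 match TGAGTCA from 74 to 68 bases before the start and an interferon response match GAAAGTGAA farther upstream. The *Ccl9* window held an AP-1 match TGAATCA from 53 to 47 bases before the start and an NF-kB match on the other strand. In *Cxcl9* an interferon response match GAAATGGAA and an NF-kB match on the other strand were found, and in *Ccl6* none. *Ccl3*, whose window is not printed, held 1 interferon response match on the other strand. Of all 32851 promoter windows of this length, 6.75% held the AP-1 motif, 3.72% the NF-kB core, 7.13% the interferon response core and 1.55% the cAMP response element, which none of the 5 members held. No matches overlapped each other. *Cxcl10* and *Ccl9*, with an AP-1 match, and *Cxcl9* and *Ccl6*, without, all had overlapping values in the 2 genotypes. Of all tested genes 26.0% had no overlap. *Cxcl10* was too scarce for the fit, *Ccl5* had no window, and the part of the motif in these values was not tested. A match is a run of letters and not a measured binding site.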

How the data were processed

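Raw counts of reads per gene were deposited by the authors, 1 file per library. Per the study's methods, directional poly(A) libraries were sequenced in pairs, aligned with STAR 2.6.1a to the mouse genome (GRCm38) and counted per gene by the aligner. The submitters' processing notes also name bcl2fastq 2.19.1.403, RSEM and DESeq2 1.20.0. No source used here gives the strand setting. Lines that summed unmapped, multimapping, unassigned and ambiguous reads were left out, and 79.1% to 79.7% of all reads lay on genes. Gene symbols came from GENCODE M21, which held 53315 of the 54532 identifiers with their version, 1180 without and 37 not at all.

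Genes were kept by filterByExpr (minimum count 10, minimum total 15) and tested by genotype with edgeR 4.0.16 (TMM factors, quasi-likelihood test, Benjamini-Hochberg adjustment over 12894 genes) in R 4.3.3. CPM used TMM factors, log2 CPM a prior count of 2, and RPKM the merged exon length. DESeq2 1.42.0, limma-voom 3.58.1, other filters and scaling, a replicate block and the removal of each library were alternatives. On simulated counts with 200 of 12894 genes changed by 2 on the log2 scale, edgeR called 196 of them with 11 false calls. The simulation gave all genes the same spread in both genotypes. It therefore does not show how often a change would be called in genes spread as widely as *Ccl5* in Δ/Δ. The members and lists were chosen with earlier results of these data known. Genes named were the members, their receptors, *Jun*, *Junb*, the genes of the other lists with an adjusted p under 0.05 (at most 8 a list), the 2 genes most like each member that spans at least 1 on the log2 scale, and markers that define other cell types; *Irf8*, *Batf3*, *Clec9a*, *Kit*, *Fcer1a*, *Ifng*, *Ifnb1*, *Cd80*, *Cd86*, *Marcksl1*, *C1qb*, *C1qc*, *Mertk*, *Bst2*, *Tcf4*, *Spib* and the genes said to be picked after their values were seen stand outside that rule. A few genes of these lists and 1 sequence are not reported here.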

Additional observations from a re-analysis of the deposited data

How the results depend on the processing

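Over 12 alternative fits, 71 member values were recomputed and 1 passed an adjusted p of 0.05, *Ccl5* without Δ/Δ replicate 2. The number of ligand genes that passed was 0 in all alternatives but that one, so leaving out single libraries gave 0 to 1, and it was 1 when an unadjusted p under 0.05 was used. *Ccl5* and *Ccl6* kept their sign in every fit. When single libraries were left out, the log2 fold change ran from -0.023 to 1.09 for *Ccl3*, from -0.56 to 0.22 for *Ccl9*, from -0.57 to 0.83 for *Cxcl9* and from -0.22 to 0.13 for *Cxcl16*, so the sign changed in each. *Ccl9* changed sign without fl/fl 3 (0.12) and without Δ/Δ 1 (0.22), and *Cxcl16* without fl/fl 2 (-0.046) and Δ/Δ 2 (-0.22). In limma-voom *Cxcl16* was at -0.019. With a replicate block it was at -0.018, 0 members passed, and *Ccl5* had an adjusted p of 0.171. Deviations of libraries of the same number had correlations of 0.091, -0.15 and 0.20, and those of differing number ran from -0.22 to 0.15. With 3 libraries per genotype these values cannot show whether the numbers pair the samples. With no filter on low counts 0 of 9 members passed and 2 had an unadjusted p under 0.05. Shares of all genes were not computed for that fit, so these counts have no background to be read against. *Ccl3* did not pass the stricter filter and has no value there. The causes of these changes were not tested. Counts of 0 to 34 reads over a genotype limit what can be said of *Ccl2*, *Ccl4* and *Cxcl10*. For the receptors, pathway genes and markers with a call these alternatives were added after seeing the data.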
